A study of Mus musculus with 6 samples.

Results

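The genes described here make cholesterol, sense it and move it. They are 31 genes of 23420 in the count table, chosen by symbol: mevalonate and sterol synthesis enzymes, their regulators, and genes of sterol transport, storage and removal. All 31 were in the table, all passed the expression filter, and none had fewer than 196 reads in any library. The study sequenced RNA from mouse neocortex at embryonic day 18.5. It set embryos labelled Tshz3 mutant against embryos labelled wild type, with 3 libraries per genotype. Tshz3 encodes a zinc finger transcription factor. Each library came from a pool of cortices of 3 to 4 embryos taken across several litters, so no value belongs to a single animal. The sources used here do not give the allele, the copies mutated, the strain or the sex of the embryos. No treatment is named for either genotype.

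Cells build cholesterol from acetyl-CoA through mevalonate, farnesyl diphosphate, squalene and lanosterol. The brain makes nearly all of its own cholesterol, because lipoproteins of the blood do not cross the blood-brain barrier. When sterol in the endoplasmic reticulum is low, the escort protein SCAP carries SREBP transcription factors to the Golgi, where they are cut and released to switch on the synthesis genes. When sterol is high, INSIG proteins hold SCAP back. Surplus sterol is esterified, exported, or, in neurons, hydroxylated to a form that leaves the brain.

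Total counts ran from 19894144 to 24147810 in mutant-labelled libraries and from 18569383 to 21052832 in wild-type libraries. Tshz3 itself was at 89.8, 93.1 and 99.2 CPM (reads scaled by library size, as described with the processing) in mutant-labelled libraries 1, 2 and 3, and at 78.7, 83.0 and 89.3 CPM in wild-type libraries 1, 2 and 3. Its gene-level count was thus not lower in the mutant-labelled libraries, and it does not check the genotype label. The 8 markers of neocortical excitatory neurons, among them Neurod6 and Tbr1, were present in every library, with summed levels of 2384 to 2582 CPM in mutant-labelled and 2301 to 2545 CPM in wild-type libraries. In such bulk tissue, fewer cells of a type and less RNA per cell cannot be told apart.

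None of the 31 sterol genes passed the quasi-likelihood test of edgeR at a threshold of 0.05 on p-values adjusted over 14618 genes. Of all genes 0.0752% passed it, 0.0479% higher and 0.0274% lower. DESeq2 also called 0 of the 31, beside 0.836% of all genes it adjusted, 0.511% higher and 0.325% lower. At an unadjusted p under 0.05, edgeR had 2 members higher and 0 lower, Sc4mol and Insig2. The edgeR shares of all genes were 4.1% higher and 3% lower, or 7.09% together. DESeq2 had 2 members under the same limit, beside 834 of the 14618 genes. When same-numbered libraries were treated as pairs, by fitting the library number as a block, 1 member passed and 30 did not: Sc4mol rose. The background with the block was 3.46% of all genes, 1.97% higher and 1.49% lower, so 1 of 31 is close to it. DESeq2 with the block also called Sc4mol alone among the members, beside 1.68% of all genes, 0.97% higher and 0.713% lower.

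The differences were small but leaned to the mutant-labelled side. The log2 fold change, mutant-labelled over wild type, was above 0 in 25 of the 31 genes, beside 47.7% of all genes tested. Its median was 0.07 over the members and −0.01 over all genes. Leaving out wild type 1 gave 20 above and 11 below 0 with a median of 0.04, and the median was also 0.04 without mutant-labelled 3. It was 0.11 without mutant-labelled 1 or without wild type 3. Members ran from −0.18 for Cyp46a1 to 0.26 for Stard4, and without wild type 1 these were −0.09 and 0.08. With the block, 8 members were higher and 1 lower at an unadjusted p under 0.05, beside 9.36% and 8.51% of all genes, or 17.9% together. In all 3 pairs, 11 members were higher and 1 was lower, beside 19.3% and 19.8% of all genes. Every mutant-labelled library lay above every wild-type library for 2 members and below for 0, beside 7.42% and 6.09% of all genes, or 13.5% together. The list was made with earlier results of these data known, so these shares are no independent evidence of its direction.

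**Figure D1:**
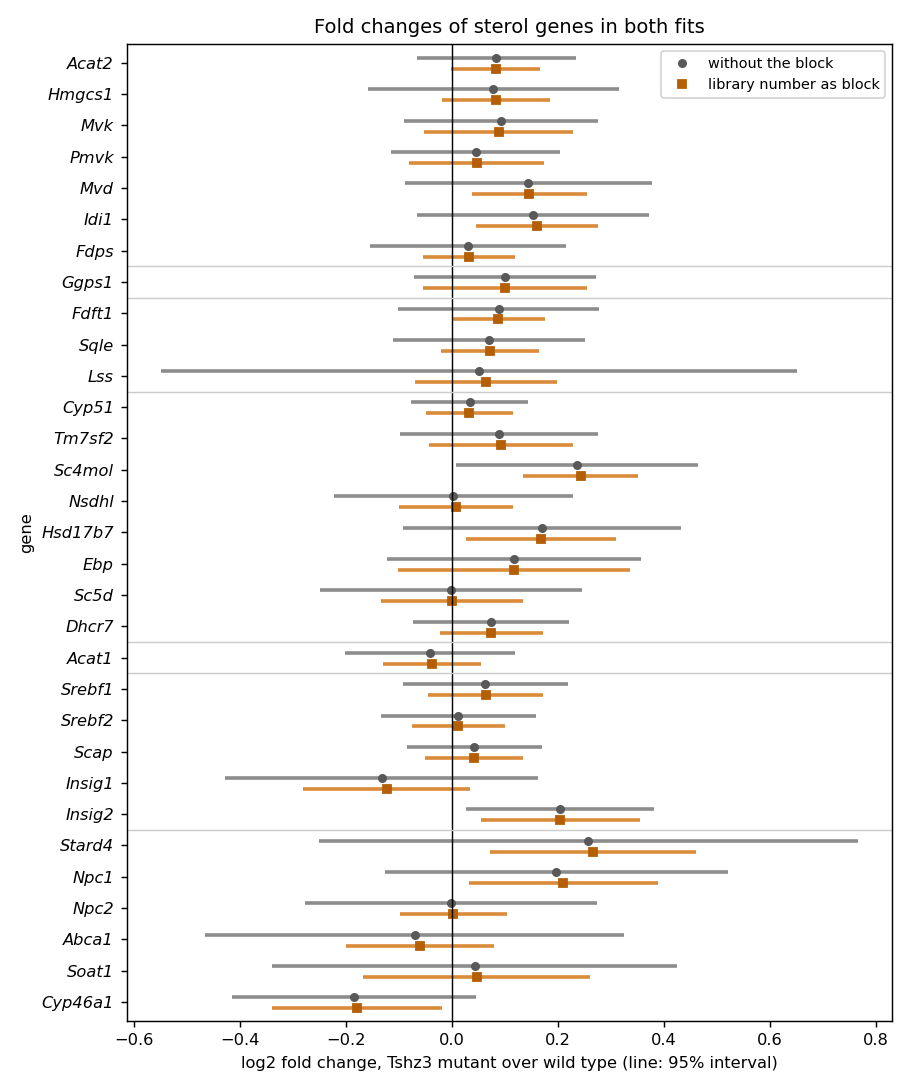
Log2 fold change of each of the 31 sterol genes, mutant-labelled over wild type (x axis), with its 95% interval as a line. Grey circles come from the fit without the block and orange squares from the fit with the library number as a block. The genes run down the page by role. Most points sit a little to the right of 0, with Stard4 furthest right at 0.26 and Cyp46a1 furthest left at −0.18 without the block.

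The 95% intervals set limits on what could have been missed. Without the block, the interval excluded no change in 2 of the 31 members. Across the members, the highest upper bound was 1.70-fold, for Stard4, and the lowest lower bound was 0.684-fold, for Lss. With the block, 9 intervals excluded no change, and the bounds ran from 0.791-fold for Cyp46a1 to 1.38-fold for Stard4. These intervals are for single genes and are not adjusted for the number of genes.

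Sc4mol, named Msmo1 in current annotation, encodes the oxidase that begins to strip the paired methyl groups from the sterol ring after lanosterol. It lies at chr8:64718139-64733792 on the minus strand of GRCm38, and no annotated exon of another gene overlaps its exons. Its level was 115, 123 and 126 CPM in mutant-labelled libraries 1, 2 and 3, and 87.3, 108 and 113 CPM in wild-type libraries 1, 2 and 3. The groups did not overlap, and wild type 1 was the lowest of the 6 libraries. The mean was 121 ± 5.68 CPM in mutant-labelled and 103 ± 13.8 CPM in wild-type libraries (SD, n = 3 each). Sc4mol differed by 0.24 on the log2 scale (SE 0.10, edgeR adjusted p = 0.678), and with the block by 0.24 (SE 0.05, adjusted p = 0.0177). Within pairs 1, 2 and 3 the log2 differences were 0.40, 0.19 and 0.15, so all pairs pointed the same way and pair 1 differed most. DESeq2 with the same block gave an adjusted p of 0.0479. With the block, the log2 fold change was 0.17 without pair 1 (edgeR adjusted p = 0.143), 0.27 without pair 2 (adjusted p = 9.57e-06) and 0.29 without pair 3 (adjusted p = 0.128). The call was thus lost without pair 3 although the difference was larger there, and each of these fits has 1 residual degree of freedom. Without the block, Sc4mol differed by 0.13 when wild type 1 was left out.

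Windows upstream of the transcription start are shown for the members with the smallest p in the fit with the block, since SREBP acts at such sites together with the factor NF-Y, whose known site is CCAAT. The 5 smallest were Sc4mol, Idi1, Stard4, Insig2 and Mvd, and all of these but Stard4 are shown. Hmgcs1 was added after the motif search, as the only member whose window held a match to TCACNCCAC, a form of the sterol response element. Each window is the 250 bases before a RefSeq start on GRCm38.p6, read 5′ to 3′ on the gene's strand, and capitals mark CCAAT, its reverse complement ATTGG, and the TCACNCCAC match.
Sc4mol upstream window: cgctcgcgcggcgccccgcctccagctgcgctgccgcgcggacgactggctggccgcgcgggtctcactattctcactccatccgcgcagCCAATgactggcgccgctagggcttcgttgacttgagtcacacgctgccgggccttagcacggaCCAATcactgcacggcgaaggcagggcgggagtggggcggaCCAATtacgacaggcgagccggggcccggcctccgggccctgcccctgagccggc
Idi1 upstream window: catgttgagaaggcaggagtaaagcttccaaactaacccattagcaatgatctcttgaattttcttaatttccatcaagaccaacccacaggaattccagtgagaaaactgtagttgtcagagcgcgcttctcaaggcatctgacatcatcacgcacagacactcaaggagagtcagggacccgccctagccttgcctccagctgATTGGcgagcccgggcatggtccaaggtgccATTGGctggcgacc
Insig2 upstream window: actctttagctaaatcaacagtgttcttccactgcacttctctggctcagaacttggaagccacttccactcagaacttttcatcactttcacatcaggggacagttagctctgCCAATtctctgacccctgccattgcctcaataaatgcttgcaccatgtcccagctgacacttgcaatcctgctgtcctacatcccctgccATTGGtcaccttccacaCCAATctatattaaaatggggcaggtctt
Mvd upstream window: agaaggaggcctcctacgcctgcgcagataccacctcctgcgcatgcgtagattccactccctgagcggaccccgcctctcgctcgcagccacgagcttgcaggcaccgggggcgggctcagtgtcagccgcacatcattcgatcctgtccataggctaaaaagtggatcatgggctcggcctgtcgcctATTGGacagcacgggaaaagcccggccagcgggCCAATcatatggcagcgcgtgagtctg
Hmgcs1 upstream window: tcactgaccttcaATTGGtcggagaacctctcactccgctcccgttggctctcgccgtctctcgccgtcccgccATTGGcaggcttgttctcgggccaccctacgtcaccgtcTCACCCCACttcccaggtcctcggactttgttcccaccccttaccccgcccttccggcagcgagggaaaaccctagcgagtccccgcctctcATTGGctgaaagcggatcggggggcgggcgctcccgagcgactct
The windows lie at chr8:64733579-64733828 on the minus strand for Sc4mol, chr13:8885356-8885605 on the plus strand for Idi1, and chr1:121332590-121332839 on the minus strand for Insig2. Those of Mvd and Hmgcs1 lie at chr8:122443423-122443672 on the minus strand and chr13:119690101-119690350 on the plus strand. For Insig2, which has 3 annotated starts, the start whose window held the most CCAAT matches is shown, and the windows of its other starts held none. RefSeq starts can lie inside the gene bounds used here, which come from GENCODE. This holds for Sc4mol and for Idi1, whose bounds are chr13:8885501-8892451. Their windows lie partly inside the gene, and all their CCAAT matches fall there, past the GENCODE start. The other windows shown lie outside the gene bounds.

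The windows of Sc4mol, Insig2 and Hmgcs1 each held 3 matches to CCAAT on either strand, and those of Idi1 and Mvd held 2. Counting back from the RefSeq start, where −1 is the last base of the window, the nearest match ended at −51 in Sc4mol and at −10 in Idi1. The TCACCCCAC of Hmgcs1 lay at −137 to −129, between CCAAT matches at −176 to −172 and −45 to −41. Promoter windows were found for 25 of the 31 members, 33 windows in all, and not for Fdps, Fdft1, Sqle, Acat1, Stard4 and Npc1. CCAAT on either strand was in 69.7% of these windows and in 33.8% of all 32851 promoter windows of the same length. The share was 77.8% of 18 windows for the synthesis enzymes and 60% of 15 windows for the other members, and some genes gave several windows. At least 2 CCAAT matches were in 36.4% of member windows and 10.1% of all windows. TCACNCCAC, which includes TCACCCCAC, was in 1 of the 33 member windows (3.03%), that of Hmgcs1, and in 1.05% of all windows. The palindrome CACGTG, an E-box, was in 18.2% of member windows and 6.02% of all. Such matches are descriptions of letters and not measured sites.

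Early in the pathway, from acetyl-CoA to farnesyl diphosphate, all 7 enzyme genes had a log2 fold change above 0, with a median of 0.08, and none passed either test. Hmgcs1, which makes HMG-CoA, was at 903, 1019.7 and 1039 CPM in mutant-labelled libraries 1, 2 and 3, against 827, 909.8 and 1069.9 CPM in wild-type libraries 1, 2 and 3. The groups overlapped, since wild type 3 was the highest of all 6. Hmgcs1 differed by 0.08 on the log2 scale (SE 0.10). An antisense transcript overlaps 12.1% of its exon length, and the sources used here do not say whether reads were counted by strand.

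Idi1, the isomerase that balances the pathway's basic isoprene units, was at 142, 142 and 149 CPM in mutant-labelled libraries, and at 116, 124 and 150.0 CPM in wild-type libraries 1, 2 and 3. Its mutant-labelled libraries lay close together while its wild-type libraries spread, with wild type 3 the highest of all. Idi1 differed by 0.15 on the log2 scale (SE 0.09), and with the block by 0.16 (SE 0.05, edgeR adjusted p = 0.131). Mvd, which decarboxylates mevalonate diphosphate, was at 62.5, 69.6 and 74.1 CPM in mutant-labelled libraries 1, 2 and 3, against 54.8, 62.5 and 69.5 CPM in wild-type libraries 1, 2 and 3. Each mutant-labelled library of Mvd was above its wild-type partner, by log2 differences of 0.19, 0.16 and 0.09, though the groups overlapped. With the block its log2 fold change was 0.15 (SE 0.05, edgeR adjusted p = 0.140).

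The remaining early enzymes differed less. Mvk and Pmvk, the kinases that phosphorylate mevalonate, had log2 fold changes of 0.09 and 0.04. Fdps, which joins isoprene units into farnesyl diphosphate, had one of 0.03, and a predicted gene on the same strand overlaps 26.7% of its exon length. Acat2, the cytosolic thiolase that starts the route, had one of 0.08 and was higher in all 3 pairs. Its relative Acat3 was at no more than 1.06 CPM in any library, and Idi2, the relative of Idi1, at no more than 0.0966 CPM, so few reads were assigned to either. Ggps1, which turns farnesyl diphosphate towards protein prenylation instead of sterol, differed by 0.10 on the log2 scale (SE 0.07) and was not called with or without the block.

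Past farnesyl diphosphate the pathway is committed to sterols. Fdft1, the squalene synthase, was at 292, 308 and 343 CPM in mutant-labelled libraries 1, 2 and 3, against 274, 294 and 319.7 CPM in wild-type libraries 1, 2 and 3. The shift was even across pairs, at 0.09, 0.07 and 0.10 on the log2 scale, and smaller than the spread within each genotype. With the block Fdft1 had an edgeR adjusted p of 0.275, and exons of Ctsb on the opposite strand overlap 18.3% of its exon length. Sqle, the squalene epoxidase, had a log2 fold change of 0.07 (SE 0.08).

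Lss, which folds the epoxide into lanosterol, varied more between libraries than any other synthesis enzyme, by 1.84-fold. It was at 42.7, 67.0 and 51.9 CPM in mutant-labelled libraries 1, 2 and 3, and at 36.4, 67.0 and 52.7 CPM in wild-type libraries 1, 2 and 3. Libraries of the same number matched almost exactly for numbers 2 and 3, across genotypes. The SE of its log2 fold change was accordingly 0.25 without the block and 0.06 with it, around values of 0.05 and 0.06.

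Of the 8 enzyme genes from lanosterol to cholesterol, 7 had a log2 fold change above 0, with a median of 0.08. Sc4mol was the one that passed with the block. Hsd17b7, which reduces the ketone left after methyl removal, was at 35.5, 45.03 and 37.8 CPM in mutant-labelled libraries 1, 2 and 3, against 31.0, 37.9 and 36.4 CPM in wild-type libraries 1, 2 and 3. It was higher in all 3 pairs, with a log2 fold change of 0.17 with the block (SE 0.07, edgeR adjusted p = 0.195), and the groups overlapped.

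Nsdhl, the dehydrogenase that acts between Sc4mol and Hsd17b7 in the same methyl-removing complex, had a log2 fold change of 0.00 (SE 0.10). Whether the genes of this step differed from one another in their change was not tested. Cyp51, the demethylase that acts on lanosterol, was the steadiest member, at 181 to 190.1 CPM in mutant-labelled and 180.4 to 181 CPM in wild-type libraries. Its log2 fold change was 0.03 (SE 0.05). Tm7sf2 and Ebp, a sterol reductase and a sterol isomerase, had log2 fold changes of 0.09 and 0.12, and exons of Vps51 on the same strand overlap 12.1% of the exon length of Tm7sf2. Dhcr7, the reductase of the last step, had one of 0.07. Sc5d, the desaturase just before it, was at 34.7 to 42.2 CPM in mutant-labelled and 33.9 to 42.6 CPM in wild-type libraries, with no steady sign.

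**Figure D2:**
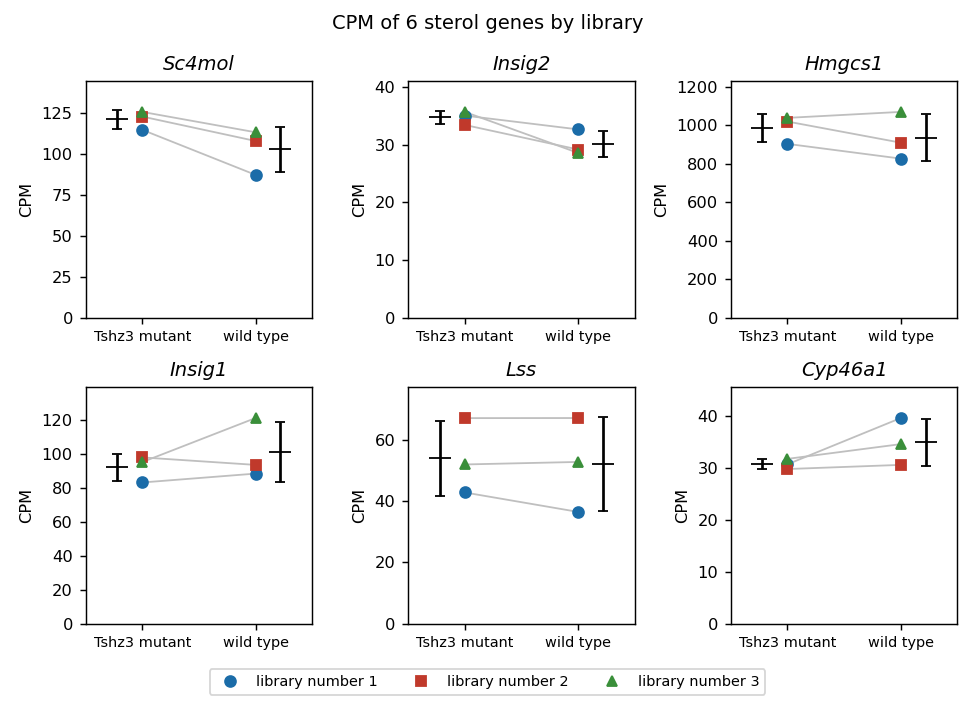
Level in CPM (y axis, from 0) of Sc4mol, Insig2, Hmgcs1, Insig1, Lss and Cyp46a1 in the 3 mutant-labelled and 3 wild-type libraries. Symbols and colours give the library number, thin lines join same-numbered libraries, and black bars are mean ± SD. Sc4mol and Insig2 are higher in every mutant-labelled library than in any wild-type one, while Lss follows the library number.

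Among the 5 control genes the paired INSIG genes stood on opposite sides. Insig2 lies at chr1:121304353-121332589 on the minus strand and encodes the INSIG protein whose gene is, as background, less dependent on SREBP. Its level was 35.1, 33.4 and 35.7 CPM in mutant-labelled libraries 1, 2 and 3, and 32.7, 29.2 and 28.6 CPM in wild-type libraries 1, 2 and 3. The groups did not overlap, by 33.4 against 32.7 CPM at the closest. Insig2 differed by 0.20 on the log2 scale (SE 0.08, edgeR adjusted p = 0.615), or 0.20 with the block (SE 0.07, adjusted p = 0.135), and so was not called by either fit.

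Insig1, a strong SREBP target itself, lies at chr5:28071363-28078662 on the plus strand. It was at 83.3, 98.1 and 95.3 CPM in mutant-labelled libraries 1, 2 and 3, against 88.5, 93.7 and 121 CPM in wild-type libraries 1, 2 and 3. Wild type 3 stood above the other 5 libraries, which overlapped. Insig1 had a difference on the log2 scale of −0.13 (SE 0.13, edgeR adjusted p = 0.91), and without wild type 3 it was 0.02. With the block and all pairs Insig1 differed by −0.12 (edgeR adjusted p = 0.402). With the block and without pair 2 it passed, at −0.22 (edgeR adjusted p = 0.00121), where pairs 1 and 3 differed by −0.09 and −0.35. That fit has 1 residual degree of freedom and called 1874 of 14628 genes, against 506 of 14618 with all pairs.

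The remaining control genes were close to level. Srebf2, the SREBP gene that drives sterol synthesis, was at 306 to 339 CPM in mutant-labelled and 307 to 338 CPM in wild-type libraries, and its log2 fold change was 0.01 (SE 0.06). Srebf1, whose products lean to fatty acid synthesis, had one of 0.06 (SE 0.07), and the escort gene Scap one of 0.04 (SE 0.05). The 95% interval for Srebf2 was 0.912-fold to 1.12-fold.

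The 6 genes of transport, storage and removal were split, with 3 above and 3 below 0 and a median log2 fold change of 0.02. Stard4, a soluble carrier that moves cholesterol between membranes, was at 14.8, 21.6 and 17.8 CPM in mutant-labelled libraries 1, 2 and 3, against 11.3, 19.4 and 14.5 CPM in wild-type libraries 1, 2 and 3. Each mutant-labelled library was above its partner, but the groups overlapped and the range over all 6 libraries was 1.90-fold. Stard4 differed by 0.26 on the log2 scale (SE 0.22), and with the block by 0.27 (SE 0.09, edgeR adjusted p = 0.133). Without the block, it was 0.11 without mutant-labelled 2 and 0.48 without wild type 2.

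Npc1, the lysosomal membrane protein gene of Niemann-Pick type C disease, was at 51.9, 56.0 and 53.5 CPM in mutant-labelled libraries 1, 2 and 3, and at 39.5, 58.2 and 43.1 CPM in wild-type libraries 1, 2 and 3. Pairs 1 and 3 differed by 0.39 and 0.31 on the log2 scale and pair 2 by −0.06. With the block the log2 fold change of Npc1 was 0.21 (SE 0.08, edgeR adjusted p = 0.201). Npc2, the soluble lysosomal partner, was at 80.6 to 100.1 CPM in mutant-labelled and 81.0 to 105 CPM in wild-type libraries, with no steady sign.

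Cyp46a1 encodes the neuronal enzyme that hydroxylates cholesterol for export from the brain, at chr12:108334381-108362234. It was at 30.7, 29.8 and 31.7 CPM in mutant-labelled libraries 1, 2 and 3, against 39.6, 30.6 and 34.6 CPM in wild-type libraries 1, 2 and 3. It was the one member lower in all 3 pairs, though mutant-labelled 1 and 3 lay above wild type 2. Its log2 fold change was −0.18 (SE 0.10), and with the block −0.18 (SE 0.08, edgeR adjusted p = 0.225). Abca1, which exports sterol to lipoproteins, differed by −0.07 on the log2 scale (SE 0.17), and Soat1, which esterifies cholesterol for storage, by 0.04 (SE 0.17). Acat1 is the mitochondrial thiolase of ketone body metabolism, outside the sterol route, and differed by −0.04 on the log2 scale (SE 0.07).

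**Figure D3:**
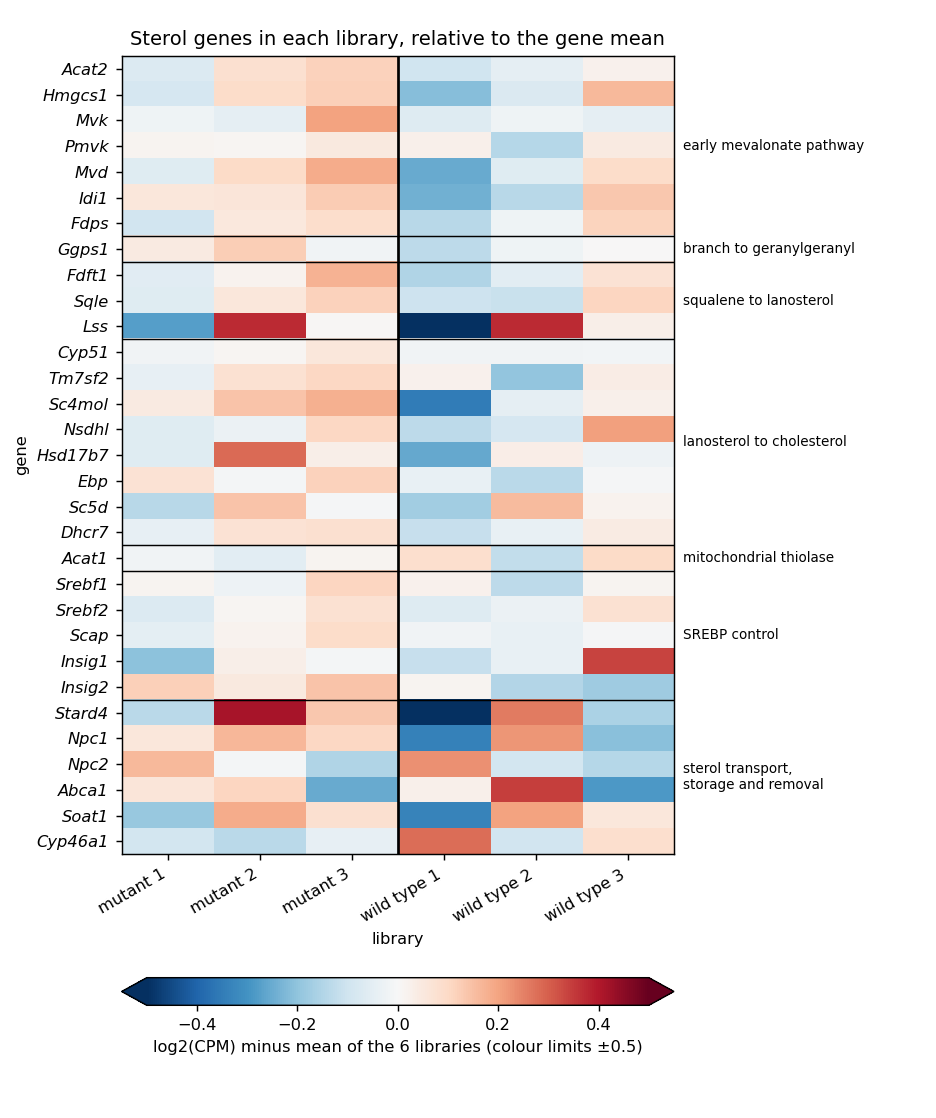
Each of the 31 sterol genes (rows, by role) in each library (columns), coloured by log2 CPM minus the gene's mean over the 6 libraries. Red is above and blue below that mean. Rows of synthesis enzymes tend from blue in libraries numbered 1 to red in libraries numbered 3 in both genotypes, while Lss and Stard4 are highest in libraries numbered 2.

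Levels per length place the enzymes against each other. On a scale of CPM per kilobase of the main annotated transcript, averaged over the 6 libraries, Hmgcs1 was highest at 278, above 98.9% of genes with a length. Fdps followed at 163, then Sqle at 86.8 and Fdft1 at 82.5, whose libraries overlapped in level. The lowest were Abca1 at 5.06, Stard4 at 3.25 and Soat1 at 1.42. Of the 31 members 24 lay above the median gene on this scale. The control genes ranged from 63.3 for Srebf2 to 12.03 for Insig2, with Insig1 at 35.8.

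Many members followed the library number. In 25 of 31 members the highest mutant-labelled and the highest wild-type library had the same number, beside 54.8% of all genes tested. Among the 18 synthesis enzymes, 14 were highest in number 3 in both genotypes, beside 15.2% of all genes, and 12 were lowest in number 1 in both, beside 17.5%. Of the 6 transport, storage and removal genes, 4 were instead highest in number 2 in both genotypes, beside 20.1% of all genes. The median position of the 18 enzymes, as log2 CPM minus the gene mean, was −0.06, 0.07 and 0.11 in mutant-labelled libraries 1, 2 and 3, against −0.14, −0.05 and 0.04 in wild-type libraries 1, 2 and 3. The mutant-labelled library was above its partner in each pair, but mutant-labelled 1 was below wild type 2 and wild type 3.

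The enzymes leaned to the mutant-labelled side in each pair. Their median log2 difference was 0.07, 0.12 and 0.05 in pairs 1, 2 and 3, and 16, 15 and 12 of the 18 were above 0, beside about even shares of all genes at 49.4%, 48.6% and 50.4%. For the 5 control genes the medians were −0.01, 0.07 and 0.09.

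**Figure D4:**
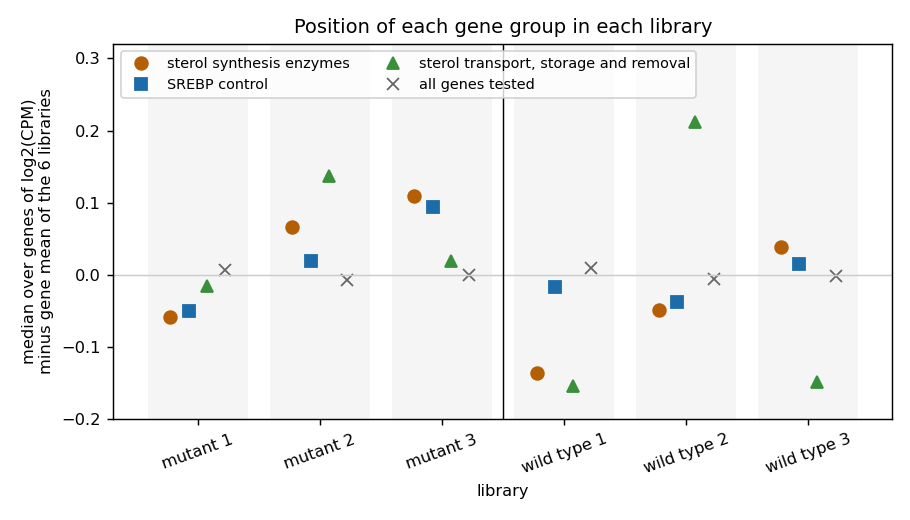
Median over genes of log2 CPM minus the gene's mean over the 6 libraries (y axis), for the 18 synthesis enzymes, the 5 control genes, the 6 transport, storage and removal genes and all genes tested, in each library (x axis). The enzymes are lowest in number 1 and highest in number 3 in both genotypes, while all genes tested stay near 0.

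Markers of other tissues also differed by library number. Summed levels of 6 choroid plexus markers, led by Ttr, were 819, 193 and 152 CPM in mutant-labelled libraries 1, 2 and 3, against 832, 123 and 231 CPM in wild-type libraries 1, 2 and 3. Those of 8 meningeal and fibroblast markers were 356, 129.7 and 110.5 CPM in mutant-labelled libraries 1, 2 and 3, against 431, 278 and 88.2 CPM in wild-type libraries 1, 2 and 3. Both sums were highest in the libraries numbered 1, where the synthesis enzymes were lowest, and their part in the enzyme levels was not tested. Between genotypes the ranges of these sums overlapped, and so did those of 8 astrocyte markers, at 620 to 721 CPM in mutant-labelled and 597 to 701 CPM in wild-type libraries. The same held for 8 oligodendrocyte lineage markers, at 214 to 234 CPM in mutant-labelled and 217 to 235 CPM in wild-type libraries. The 8 microglial markers summed to 82.0 to 99.0 CPM in mutant-labelled and 86.2 to 106 CPM in wild-type libraries. Marker sums of endothelial cells, of red blood cells and of striatum with ganglionic eminences also overlapped. Without the block, 0 genes of any marker list passed, and the globin genes Hba-a1, Hba-a2 and Hbb-b1 had no read. With the block, 2 of 8 neuronal markers, among them Bcl11b (edgeR adjusted p = 0.0478), and 1 of 8 astrocyte markers, Slc1a2 (edgeR adjusted p = 0.0035), were higher, beside 1.97% of all genes. Within pairs, the mutant-labelled sum was above its wild-type partner in all 3 pairs for excitatory neuron and astrocyte markers. It was below in all 3 for microglial markers and for markers of striatum and ganglionic eminences. Sums of the latter were 258, 229.8 and 237 CPM in mutant-labelled libraries 1, 2 and 3, against 286, 248 and 244 CPM in wild-type libraries 1, 2 and 3. Lhx6 was their largest part, at 100.4, 96.2 and 94.7 CPM against 114, 100.1 and 111 CPM. In pair 3 Lhx6 differed by more than the whole sum did. The other genes of that list therefore summed higher in mutant-labelled 3 than in wild type 3. The statement that this sum was below in all 3 pairs thus depends on Lhx6. Each of these lists held genes with log2 fold changes on both sides of 0. Among microglial markers Cx3cr1 (0.03), P2ry12 (0.02) and Csf1r (0.06) were above it and the rest below. These sums had no test of their own, and their part in the sterol gene values was not tested.

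Beyond the members, 83 further genes of sterol and lipid metabolism were listed, of which 81 were tested. None passed without the block, where 4 of 81 were higher and 1 lower at an unadjusted p under 0.05, beside 4.1% and 3% of all genes. DESeq2 called 1 of them, Osbpl1a, lower, beside 0.836% of all genes in either direction. With the block, 3 were higher and 2 lower and 76 did not pass, beside the same 1.97% and 1.49% of all genes. Scd1 and Icmt were among the 3 that rose, and the 2 that fell were Osbpl1a and Gramd1b. Over the 81, 53 had a log2 fold change above 0 and 28 below, beside 47.7% of all genes above 0. The median was 0.04, beside −0.01 over all genes. These lists too were made with earlier results of these data known.

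Osbpl1a, an oxysterol-binding protein of late endosomes, was at 105, 106 and 105 CPM in mutant-labelled libraries and at 120.2, 126 and 139 CPM in wild-type libraries, with no overlap. It fell by 0.28 on the log2 scale with the block (edgeR adjusted p = 0.00396), and without pair 3 its log2 fold change was −0.22, which was not called (adjusted p = 0.208). DESeq2 without the block gave it an adjusted p of 0.0492. Gramd1b, which moves cholesterol from the plasma membrane to the endoplasmic reticulum, fell by 0.40 with the block (edgeR adjusted p = 0.0236; without it, 0.947) while its level spread by library number, at 17.0, 47.3 and 24.0 CPM in mutant-labelled libraries 1, 2 and 3, against 27.3, 54.2 and 31.1 CPM in wild-type libraries 1, 2 and 3. With the block, its log2 fold change was −0.28 without pair 1 (edgeR adjusted p = 0.0935) and −0.41 without pair 3 (adjusted p = 0.257).

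Scd1, a fatty acid desaturase gene under SREBP control, rose by 0.22 with the block (edgeR adjusted p = 0.0486). Its mutant-labelled libraries averaged 52.6 ± 5.35 CPM and its wild-type libraries 45.1 ± 4.46 CPM (SD, n = 3 each). Icmt, which methylates prenylated proteins, rose by 0.27 (adjusted p = 0.027), at 48.4, 49.9 and 47.9 CPM in mutant-labelled libraries and 38.0, 44.1 and 39.0 CPM in wild-type libraries. Neither passed DESeq2 with the block, with adjusted p of 0.32 for Scd1 and 0.168 for Icmt, and neither passed edgeR without pair 1 or without pair 3. Their log2 fold changes in those fits were 0.226 and 0.228 for Scd1, and 0.235 and 0.262 for Icmt, about as large as with all pairs. Of 14 fatty acid synthesis genes, Scd1 was the one called, and Fasn, the fatty acid synthase gene, had a log2 fold change of 0.03 (SE 0.17). None of 14 efflux, esterification and oxysterol genes or of 9 endoplasmic reticulum and Golgi regulators passed.

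**Figure D5:**
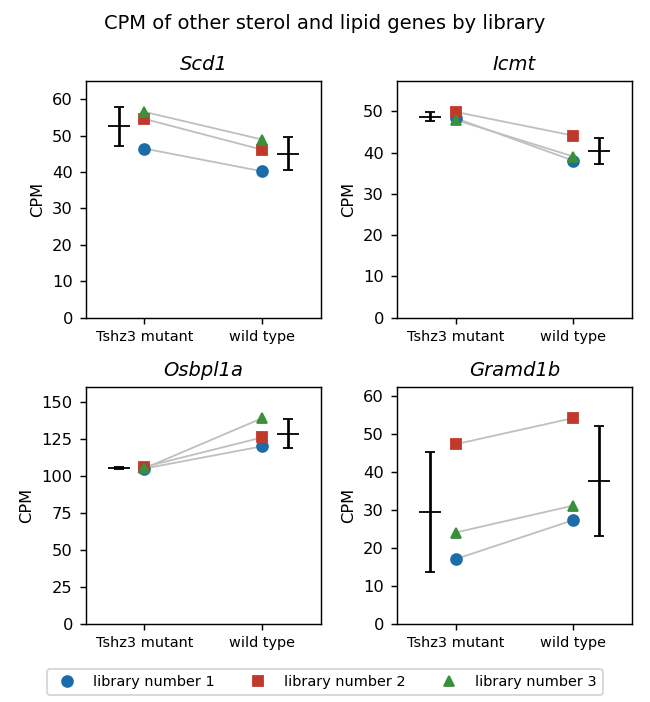
Level in CPM (y axis, from 0) of Scd1, Icmt, Osbpl1a and Gramd1b in the 3 mutant-labelled and 3 wild-type libraries. Symbols and colours give the library number, thin lines join same-numbered libraries, and black bars are mean ± SD. Icmt is higher and Osbpl1a lower in every mutant-labelled library than in any wild-type one, and Gramd1b is highest in the libraries numbered 2.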

How the data were processed

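The 6 RNA libraries were prepared with a TruSeq kit that keeps strand, per the labels' protocols. The values the authors deposited are unnormalized read counts by gene symbol. Per the submitters' processing notes, the tools were HTSeq 0.5.3p9, Bowtie2 2.1.0, TopHat2 2.0.9 and CASAVA 1.8.2, and the build was mm10. The sources used here give neither their settings nor the annotation or strand option, so genes with overlapping exons could share or lose reads. Such overlaps, found in GENCODE M21 on GRCm38, touched 11 of the 31 members. All rows named a gene, and 0 sample columns were unused.

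Members and lists were chosen with earlier results of these data known. Every member was to be described, and of the other pathway genes those past the threshold in either fit, at most 15. Some listed genes are not reported here by name, and the counts and sums of their lists include them. Sc4mol was matched to annotation by its synonym and the other 30 members by symbol.

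The comparison was fitted with edgeR 4.0.16 in R 4.3.3 (quasi-likelihood test, TMM scaling, robust fit, default expression filter). The test was two-sided, with Benjamini-Hochberg adjustment over 14618 genes at 0.05. The fit was tested on simulated data. CPM are counts over TMM-scaled library sizes, and SE were derived from the F statistic. Log2 differences within pairs use a prior count of 2. Chi-square values over degrees of freedom were 7.13 to 23.1 between libraries of 1 genotype, so none was a copy of another of its genotype. Libraries of different genotypes were not compared in this way. Replicates are pools of embryos. P-values without the block set the difference against the spread between pools of a genotype. Those with the block set it against the spread left after same-numbered pools are paired.

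Same-numbered libraries deviated together from their group means (correlations across genes of 0.614, 0.514 and 0.467), all above the bound of 0.1. The numbers were therefore taken to pair libraries. The pairing comes from the data, since the labels do not say what a number shares, and deviations within a group sum to 0, so the 3 values are not independent. Alternatives were the block, RLE scaling, DESeq2 1.42.0, no filter, and leaving out each library or pair. DESeq2 with the block was added after seeing the data.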

Additional observations from a re-analysis of the deposited data

How the results depend on the processing

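Without the block, the count of members called stayed at 0 under RLE scaling, DESeq2, no filter and without any 1 library. With the replicate block it was 1 in edgeR and 1 in DESeq2, Sc4mol both times. Leaving out 1 pair at a time with the block gave 0 to 6 members. The 6 came without pair 2 (Sc4mol, Idi1, Npc1 and Stard4 higher, Cyp46a1 and Insig1 lower). That fit called 1874 of 14628 genes tested, against 506 of 14618 with all pairs. For the other pathway genes the count was 0 without the block, 1 with DESeq2, 5 with the block and 3 with the block in DESeq2, and 0 to 9 when 1 library or pair was left out, the 9 without pair 2. With all pairs in the fit, the block changed no call of any further member or pathway gene. Library numbers pair the libraries by the check described with the processing. All genes called numbered 11 without the block and 506 with it, 108 with DESeq2 and 203 with DESeq2 and the block, 20 with no filter, and 3 to 35 without 1 library. The cause of these shifts was not tested.

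The median log2 fold change of the members was 0.070 without and 0.072 with the block, 0.071 with RLE or DESeq2, 0.078 with no filter and 0.073 with DESeq2 and the block. It ran from 0.037 (without mutant-labelled 3) to 0.113 (without mutant-labelled 1) when a library or pair was left out, with 20 to 27 of the 31 members above 0.

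Members whose log2 fold change crossed 0 when libraries were left out were Hmgcs1 (−0.005 to 0.183), Pmvk (−0.012 to 0.077), Fdps (−0.031 to 0.095), Lss (−0.153 to 0.279), Nsdhl (−0.062 to 0.112), Sc5d (−0.086 to 0.082), Srebf2 (−0.019 to 0.052), Insig1 (−0.221 to 0.016), Npc2 (−0.085 to 0.121), Abca1 (−0.215 to 0.104) and Soat1 (−0.099 to 0.162). Gramd1b (−0.873 to 0.018) also crossed it. Sc5d, at −0.001, was 0.007 with no filter and 0.001 with DESeq2 and the block. Npc2, at −0.001, was 0.000 with RLE or DESeq2, 0.007 with no filter, 0.003 with the block and 0.004 with DESeq2 and the block.

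Within those ranges, the block without pair 1 gave −0.011 for Lss, −0.023 for Nsdhl and 0.038 for Npc2. The block without pair 2 gave −0.004 for Pmvk, −0.016 for Nsdhl, 0.006 for Sc5d, −0.000 for Srebf2 and 0.036 for Abca1. The block without pair 3 gave 0.012 for Sc5d and 0.009 for Npc2. The cause of these turns was not tested. Among members that kept their sign, leaving out single libraries without the block gave 0.084 to 0.484 for Stard4, −0.272 to −0.086 for Cyp46a1 and 0.129 to 0.309 for Sc4mol.

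With 3 pools per genotype the median SE among members was 0.09 without the block and 0.05 with it. A member whose interval held 0 was not shown to be unchanged.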
